A study of Homo sapiens with 6 samples.

Results

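The BCL2 survival proteins and the BAX/BAK effectors decide whether the outer membrane of the mitochondrion stays closed or is opened during apoptosis. BAX, BAK1 and BOK are the pore formers, and cytochrome c that leaves the mitochondrion through such pores starts caspase activation. BCL2, BCL2L1 (the gene of BCL-XL), BCL2L2 (BCL-W), MCL1 and BCL2A1 bind BAX or BAK1 and BH3-only proteins and hold them in check. Several of these survival proteins are drug targets in cancer. The 8 genes were taken by symbol from the deposited count table, which lists 60483 Ensembl genes, and all 8 were listed. The family comprised 5 survival genes and 3 effector genes.

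RNA had been sequenced from A2780, an established ovarian carcinoma line, in 3 WT libraries and 3 libraries of A2780 CDK12 KO. CDK12 is a kinase that phosphorylates RNA polymerase II during elongation. The KO cells were a single clone, isolated after repeated transfection with a Cas9 and guide RNA plasmid against exon 1 of CDK12, and the WT cells are given the genotype WT in the labels. The study reports that this clone had doubled DNA content and nearly doubled chromosome number relative to the parental cells. Loss of CDK12, selection of the clone and its chromosome number coincide in this design and cannot be told apart. The labels name no drug treatment for either group and do not say whether the libraries of a group came from separate cultures, so p-values measure the spread between these libraries, which may be technical.

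The total count per library ranged from 11098400 (WT replicate 3) to 30899045. CDK12 was counted 2831, 3759 and 1294 times in WT and 2432, 2504 and 1818 times in KO. Its log2 fold change was -0.23 (edgeR, adjusted p = 0.000820), but a count per gene does not show whether a transcript carries the edit. Of 10 marker genes of ovarian carcinoma cells and of other cell types, 5 were tested. The keratin genes KRT18 and KRT8 were higher in KO, with mean values of 59.9 and 7.34 CPM (counts scaled to the size of the library) in WT against 103 and 11.0 CPM in KO, and EPCAM was lower, with 3.19 against 2.17 CPM. VIM, a mesenchymal filament gene, stood at 7235 CPM in WT and 1489 CPM in KO, and COL1A1, a collagen gene typical of fibroblasts, at 629 against 122 CPM. The epithelial and Muellerian genes CDH1, PAX8 and WT1 were at or below 0.219 CPM in every library, and the leukocyte gene PTPRC and the endothelial gene PECAM1 at or below 0.09 CPM. The part of these differences in the values of the BCL2 family was not tested. CPM are shares of a library, so that the amount of RNA per cell is not measured, and fewer expressing cells cannot be told apart from less RNA in each cell.

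BAX had the largest change of the family and BCL2 the next largest, in opposite directions. In KO cells BAX fell to 50.8% of its WT level and BCL2L1 to 69.7%, while BCL2 rose to 167%. MCL1, BCL2L2 and BOK did not pass the test, and BAK1 passed it narrowly. Both groups were compared by edgeR's quasi-likelihood test. Its two-sided p-values were adjusted after Benjamini and Hochberg over 16198 genes past a filter on low counts, among them 7 of the family. At an adjusted p under 0.05, 2 of the 7 tested genes were higher in KO (BCL2 and BAK1) and 2 were lower (BAX and BCL2L1), against 31.9% and 32.0% of all tested genes. None of the 7 passed the additional threshold of the study's methods, a log2 fold change above 1 or below -1, which 8.30% of all tested genes passed upwards and 7.73% downwards. The libraries of the 2 groups did not overlap for 4 of the 7 genes (BAX, BCL2, BCL2L1 and MCL1), against 66.4% of all tested genes. The median log2 fold change of the 7 was -0.03, and that of all tested genes was 0.00. By these counts the family did not stand out from the background.

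**Figure D1:**
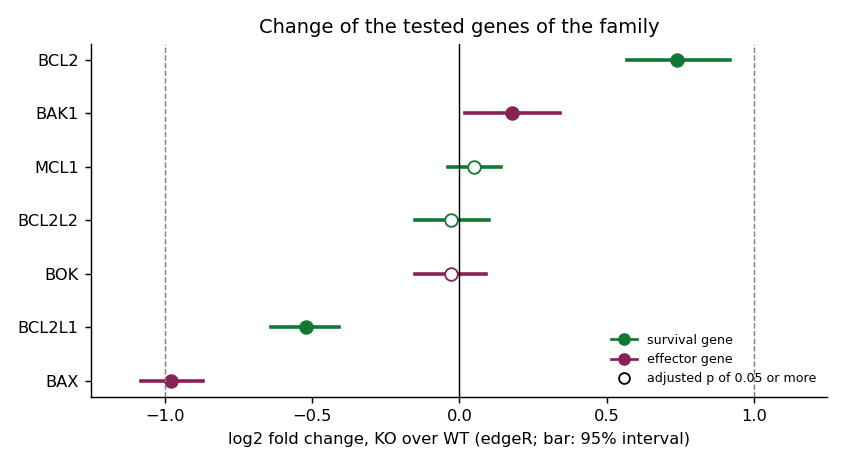
Log2 fold change of KO over WT (horizontal axis) for the 7 tested genes (vertical axis), with edgeR's estimate as a point, its 95% interval as a bar, filled points for an adjusted p under 0.05, and dashed lines at a log2 fold change of -1 and 1. BAX at -0.98 and BCL2 at 0.74 lie at opposite ends, and MCL1, BCL2L2 and BOK lie within 0.05 of 0.

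Promoter sequences are shown for the 3 genes with the clearest changes, BAX and BCL2L1, which fell, and BCL2, which rose. They are RefSeq sequences of GRCh38.p14 from 250 bases before to 50 bases after an annotated start, written 5′ to 3′ along the gene, and 6 of the 8 genes matched the promoter table used. Capitals mark the letters CACGTG (the E-box bound by MYC, USF and related factors), GGGCGG (the GC box), CCAAT and TATAAA, each searched on both strands, and matches of different motifs may touch. The sequences lie at chr19:48954625-48954924 (plus strand), chr18:63319720-63320019 (minus strand) and chr20:31723914-31724213 (minus strand, the upstream one of 2 BCL2L1 starts in the table).
BAX: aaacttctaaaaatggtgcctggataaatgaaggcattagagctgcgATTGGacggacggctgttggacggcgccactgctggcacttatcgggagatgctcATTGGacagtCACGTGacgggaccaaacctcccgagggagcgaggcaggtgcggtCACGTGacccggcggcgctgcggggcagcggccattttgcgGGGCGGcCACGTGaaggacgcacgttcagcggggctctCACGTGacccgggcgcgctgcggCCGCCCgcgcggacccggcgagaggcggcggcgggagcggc
BCL2: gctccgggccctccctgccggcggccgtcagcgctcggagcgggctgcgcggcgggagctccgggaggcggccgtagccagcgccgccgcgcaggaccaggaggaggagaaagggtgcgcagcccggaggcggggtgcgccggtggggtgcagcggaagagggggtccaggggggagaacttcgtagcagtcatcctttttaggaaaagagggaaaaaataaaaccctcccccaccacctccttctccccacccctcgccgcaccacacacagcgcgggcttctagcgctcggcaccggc
BCL2L1: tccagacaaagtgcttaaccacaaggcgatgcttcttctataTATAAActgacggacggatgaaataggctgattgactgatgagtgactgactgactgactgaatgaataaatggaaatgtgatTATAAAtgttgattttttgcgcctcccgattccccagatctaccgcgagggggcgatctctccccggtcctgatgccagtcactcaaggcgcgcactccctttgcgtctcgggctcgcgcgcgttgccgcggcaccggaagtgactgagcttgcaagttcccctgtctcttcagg

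The BAX sequence held CACGTG 4 times, with first bases at -138, -93, -45 and -14 relative to the start, besides 2 GC boxes and 2 CCAAT matches, and 67.3% of its bases were G or C. CACGTG was present in 7.26% of the 35116 promoters in the table, at least 2 times in 0.664% and at least 4 times in 5 promoters. The other promoters of that kind belonged to SLC25A31, which was not tested, and to LAMP1, RAD9A and AMDHD2, with log2 fold changes of -0.10, -0.17 and 0.38; these genes were singled out after their values were seen. None of the 4 motifs was found in the BCL2 sequence, which was 70.7% G and C. The BCL2L1 sequence held TATAAA 2 times, a motif present in 11.5% of promoters and at least 2 times in 2.36%, and its second start had 1 GC box, a motif present in 45.0%. CCAAT was present in 34.6%. A match of letters is a description and says nothing about the binding of a factor in these cells.

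BAX (ENSG00000087088) lies on chromosome 19 from 48954815 to 48961798 on the plus strand of GRCh38. Its protein waits in the cytosol of healthy cells and inserts into the mitochondrial membrane when a BH3-only protein activates it, and its gene is a known p53 target. BAX was at 94.0, 95.2 and 98.7 CPM in the WT libraries and at 47.9, 50.7 and 47.3 CPM in the KO libraries. Every KO library lay far below every WT library, and the spread within a group was small, with a coefficient of variation of 2.53% in WT and 3.79% in KO. The log2 fold change was -0.98 (standard error 0.0527, 95% interval -1.08 to -0.87, adjusted p = 4.69e-17, edgeR), just short of the fold threshold. Of all tested genes, 16.5% had a larger change in either direction. Without KO replicate 2 the log2 fold change was -1.01 and BAX then passed both thresholds. The exact permutation test over libraries gave p = 0.1, two-sided, the smallest value that 3 libraries against 3 allow. No exon base of BAX is shared with another annotated gene on either strand.

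BAK1 (ENSG00000030110), on chromosome 6 from 33572547 to 33580293, encodes the effector that resides in the mitochondrial membrane and can stand in for BAX. It was at 18.8, 21.5 and 17.4 CPM in WT and at 22.3, 20.7 and 23.7 CPM in KO. The groups overlapped, since KO replicate 2 lay below WT replicate 2. The log2 fold change was 0.18 (standard error 0.0785, 95% interval 0.02 to 0.34, adjusted p = 0.0469, edgeR), and the exact permutation test gave p = 0.200, two-sided. With voom/limma, the tool of the study, the adjusted p was 0.0626, and with DESeq2 it was 0.0879. BAK1 also lost its call when WT replicate 1, WT replicate 3, KO replicate 1 or KO replicate 3 was omitted, where the adjusted p lay between 0.104 and 0.188. GGNBP1, a pseudogene on the other strand that shares 4.11% of the exon bases of BAK1, had 4, 2 and 5 counts in WT and 32, 43 and 21 in KO, against at least 193 counts of BAK1 in each library. The processed pseudogene BAK1P1 had 15 counts over all libraries.

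BOK (ENSG00000176720), the least studied of the effectors, lies on chromosome 2 from 241551424 to 241574131 on the plus strand. BOK was at 44.7, 45.0 and 43.0 CPM in WT and at 40.6, 44.6 and 45.5 CPM in KO. The groups overlapped, and KO held both the lowest and the highest library. Its log2 fold change was -0.03, with a 95% interval of -0.15 to 0.09 (adjusted p = 0.689, edgeR). In linear terms the interval ran from 0.902 to 1.07 times the WT level. BOK-AS1, on the other strand, shares 7.50% of the BOK exon bases and had 15 counts in all.

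BCL2 (ENSG00000171791), the founding survival gene and the target of venetoclax, lies on chromosome 18 from 63123346 to 63320128 on the minus strand. It was at 11.4, 14.0 and 12.6 CPM in WT and at 22.2, 19.5 and 22.5 CPM in KO. All KO libraries were above all WT libraries, although BCL2 varied more between libraries than BAX did, by 10.2% in WT and 7.66% in KO. The rise corresponded to a log2 fold change of 0.74 (standard error 0.0855, 95% interval 0.57 to 0.92, adjusted p = 4.59e-09, edgeR), and 22.3% of the tested genes had a larger change. Raw counts ranged from 140 in WT replicate 3 to 545 in KO replicate 1. Like BAX, BCL2 shares no exon base with another annotated gene.

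BCL2L1 (ENSG00000171552), whose main product BCL-XL holds BAX and BAK1 inactive, lies on chromosome 20 from 31664452 to 31723989 on the minus strand. The WT libraries had 48.3, 49.4 and 49.3 CPM and the KO libraries 33.5, 34.7 and 34.2 CPM. The groups were clearly apart, with a coefficient of variation of 1.17% in WT and 1.78% in KO. The log2 fold change was -0.52 (standard error 0.0572, 95% interval -0.64 to -0.41, adjusted p = 1.70e-09, edgeR), and 32.6% of tested genes changed more. ABALON, an antisense transcript that overlaps 41.3% of the BCL2L1 exon bases, had 3 counts over the 6 libraries. Alternative splicing of BCL2L1 yields the pro-apoptotic form BCL-XS, which a count per gene does not separate from BCL-XL. The same holds for the short form of MCL1.

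MCL1 (ENSG00000143384), a survival gene with a short-lived mRNA and protein, lies on chromosome 1 from 150560895 to 150579738 on the minus strand. It was at 521, 514 and 524 CPM in WT and at 544, 532 and 537 CPM in KO. Each KO library lay above each WT library by a small margin, with means of 520 ± 5.19 and 538 ± 5.87 CPM (SD, n = 3). The log2 fold change was 0.05, with a 95% interval of -0.04 to 0.14 (adjusted p = 0.340, edgeR), and the exact permutation test gave p = 0.1, two-sided, its smallest value. ADAMTSL4-AS1, which shares 5.27% of the exon bases of MCL1 on the same strand, had at most 37 counts in any library, against at least 5821 of MCL1. ADAMTSL4 on the other strand, with 43 bases in common with MCL1, had a log2 fold change of -1.62.

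BCL2L2 (ENSG00000129473), the gene of BCL-W, lies on chromosome 14 from 23298790 to 23311751 on the plus strand. It had 35.8, 38.7 and 38.8 CPM in WT and 36.2, 36.6 and 38.3 CPM in KO. The groups overlapped, and the log2 fold change was -0.03 with a 95% interval of -0.15 to 0.10 (adjusted p = 0.706, edgeR). The readthrough gene BCL2L2-PABPN1 shares 16.8% of the BCL2L2 exon bases on the same strand and had 126 counts in all, and PPP1R3E and HOMEZ share 6.51% and 3.08% on the other strand. The log2 fold change of BCL2L2-PABPN1 was -0.12, with a 95% interval of -0.67 to 0.44. How the authors' counting assigned reads that fall on both genes is not given in the sources used here. BCL2A1 (ENSG00000140379, chromosome 15 from 79960892 to 79971196), a survival gene known mainly from blood cells, had 0 counts in all 6 libraries. At these depths 0 counts allow a level of up to 0.1 CPM in the deepest and 0.270 CPM in the shallowest library, and the gene was not tested.

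**Figure D2:**
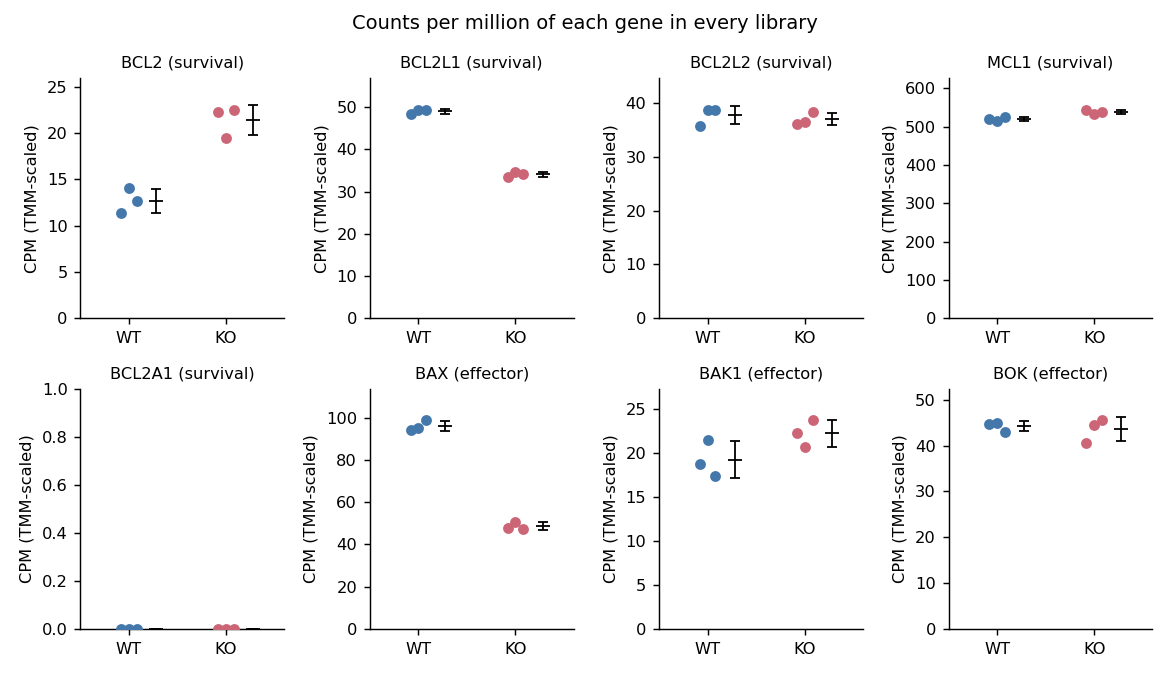
CPM of each of the 8 genes (vertical axes from 0, each gene with its own scale) in the 3 WT and 3 KO libraries, with points for libraries and the mean and SD beside them. The 3 KO points lie below the WT points for BAX and BCL2L1 and above them for BCL2 and, by a small margin, MCL1, and overlap them for BCL2L2, BAK1 and BOK, while BCL2A1 stays at 0.

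Levels were compared between genes after division by exon length, as CPM per kilobase of annotated exon (RPKM). MCL1 stood highest in both groups, at 83.5 ± 0.835 RPKM in WT and 86.4 ± 0.943 RPKM in KO (SD, n = 3). BAX was second, at 37.1 ± 0.94 RPKM in WT and 18.8 ± 0.713 RPKM in KO, and BOK was next, at 16.5 ± 0.412 RPKM in WT and 16.3 ± 0.965 RPKM in KO. In WT, BCL2L1 followed (11.7 ± 0.137 RPKM) and then BAK1 (8.68 ± 0.947 RPKM), while in KO BAK1 was at 10.0 ± 0.691 RPKM and BCL2L1 at 8.12 ± 0.144 RPKM. BCL2L2 was at 7.81 RPKM in WT and 7.65 RPKM in KO, and BCL2 was lowest of the detected genes, at 1.01 ± 0.103 RPKM in WT and 1.70 ± 0.13 RPKM in KO. Neighbours in this order had separate ranges over the libraries, except BAK1 and BCL2L2 in WT. Exon lengths were those of all annotated exons of a gene together, and the order of the middle genes depended on that choice. The longest transcript is shorter than this length for BAX (1358 against 2587 bases), BCL2 (7461 against 12612) and BCL2L1 (3257 against 4197), and equal to it for BAK1 (2212 bases). With the length of the longest transcript, an alternative chosen after seeing the data, BCL2L1 was at 10.5 RPKM and BAK1 at 10.0 RPKM in KO with overlapping ranges, so BAK1 did not stand above BCL2L1. BAX was then at 35.8 RPKM in KO, far above BOK at 16.6 RPKM. MCL1, BAX and BOK stayed the highest in that order and BCL2 the lowest detected gene in both groups.

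The balance between effectors and survival genes was examined at the level of RNA, as ratios within a library, which do not depend on how libraries are scaled. Protein was not measured in these libraries. The BAX/BCL2 ratio of RPKM was 40.1, 33.1 and 38.2 in WT and 10.5, 12.7 and 10.2 in KO. It was thus 3.34-fold lower in KO on average, and the groups were far apart. The BAX/MCL1 ratio was 0.434, 0.446 and 0.453 in WT against 0.212, 0.229 and 0.212 in KO, which is 2.04-fold lower. BAX also fell against BCL2L1, which itself fell: the ratio was 3.16, 3.13 and 3.25 in WT and 2.32, 2.37 and 2.24 in KO, or 1.37-fold lower.

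The BAK1/BCL2L1 ratio was 0.737, 0.826 and 0.669 in WT and 1.26, 1.13 and 1.32 in KO, higher in every KO library. With the longest transcripts it was 0.980, 0.877 and 1.02 in KO, so that its place relative to 1 depends on the length used, while the log2 difference between the groups, 0.74, does not. Against MCL1, BAK1 overlapped between the groups, at 0.101, 0.118 and 0.0933 in WT and 0.115, 0.109 and 0.124 in KO. The BCL2L1/MCL1 ratio was 0.138, 0.142 and 0.139 in WT and 0.0912, 0.0965 and 0.0943 in KO. The summed RPKM of the 3 effectors over that of the 5 survival genes was 0.594, 0.612 and 0.591 in WT and 0.418, 0.443 and 0.441 in KO, a log2 difference of -0.47. This sum was lower in KO by 1.38-fold although BCL2L1 had fallen as well. Of the 7 ratios, 6 did not overlap between the groups, each with p = 0.1 (exact permutation test over libraries, two-sided, adjusted p = 0.117 over the 7 ratios), so none could pass 0.05. As single genes, 66.4% of all tested genes did not overlap either. The ratios reuse the members compared above and share genes with each other, so they are not separate results. For BAK1/MCL1 the exact permutation p was 0.300.

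Within the summed RPKM of the survival genes, MCL1 took 80.3 ± 0.514% in WT and 83.2 ± 0.346% in KO (SD, n = 3). The share of BCL2L1 went from 11.2 ± 0.128% to 7.82 ± 0.203%, and that of BCL2 from 0.967 ± 0.1% to 1.63 ± 0.113%. BCL2 therefore remained a small fraction of the survival transcripts in KO despite its rise. Among the effectors, BAX took 59.6 ± 1.73% in WT and 41.7 ± 1.71% in KO, BOK 26.5 ± 0.644% and 36.0 ± 1.2%, and BAK1 13.9 ± 1.35% and 22.3 ± 1.56%. BOK, whose own level did not pass the test, gained in share as BAX fell. With the longest transcripts, BAX took 73.5% of the effector sum in WT and 57.3% in KO. The shares of MCL1, BCL2L1, BCL2, BAX, BOK and BAK1 were each separate between the groups (exact permutation test, two-sided, p = 0.1 each). These tests used the union of exons as gene length. The share of BCL2L2 overlapped between the groups, with means of 7.51% in WT and 7.36% in KO. For comparison, 66.4% of all tested genes had separate groups as single genes. Shares of one sum depend on each other, so they are not separate results.

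Genes around each member were examined on the same scale, and those around BAX, BCL2 and BCL2L1 are described in detail. Around the other members the median log2 fold change ranged from -0.26 (BOK, 17 genes) to 0.31 (BCL2A1, 9 genes). Within 500 kb of BAX, 43 other genes were tested, with a median log2 fold change of -0.10 and a range from -4.03 to 1.34. Past both thresholds, 9 of the 43 were down and 1 was up, against 7.73% and 8.30% of all tested genes. The nearest tested neighbours of BAX were DHDH, at a log2 fold change of 0.31 (edgeR, adjusted p = 0.180), and FTL, at -0.05 (adjusted p = 0.324, edgeR). The 4 genes tested around BCL2 had a median of 0.19 and a range from -0.02 to 0.70, with KDSR at 0.37 and PHLPP1 at -0.02. At an adjusted p under 0.05, 2 of these 4 were higher and 0 lower, against 31.9% and 32.0% of all tested genes. None passed the fold threshold. The 17 genes around BCL2L1 had a median of 0.04 and a range from -1.04 to 1.57, with ID1 at 0.27 and TPX2 at -0.05. The medians over all tested genes of chromosomes 19, 18 and 20 were -0.07, -0.04 and -0.06.

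By Pearson's r of log2 CPM over the 6 libraries, the genes most like BAX, the member with the largest change, were SYDE2 (r = 0.9999), CABYR (0.9996) and ADAM11 (0.9996), with log2 fold changes of -5.00, -1.86 and -1.23. An r above 0.95 with BAX was reached by 2834 tested genes (17.5%), and the 6 points fall into the 2 groups.

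Other genes of the mitochondrial pathway were taken from 5 lists with 31 genes, 27 of them tested. At an adjusted p under 0.05, 9 were higher and 10 lower in KO, and 4 were up and 1 down past both thresholds. Over all tested genes these shares were 31.9% higher, 32.0% lower, 8.30% up and 7.73% down, and the counts of single lists are read against the same shares. Their median log2 fold change was 0.03. BH3-only proteins activate the effectors or occupy the survival proteins, and 4 of the 7 tested were higher and 1 lower, beside 31.9% and 32.0% of all tested genes. BCL2L11 (BIM) went from 9.89 ± 0.836 to 29.9 ± 1.03 CPM (SD, n = 3), BBC3 (PUMA) from 10.5 ± 1.7 to 29.1 ± 1.64 CPM, and HRK from 3.68 ± 0.15 to 8.41 ± 0.799 CPM, with log2 fold changes of 1.57, 1.5 and 1.16. BID, which links caspase-8 to BAX and BAK1, fell by 0.62 on the log2 scale (adjusted p = 8.82e-10, edgeR), and PMAIP1 (NOXA), the partner of MCL1, was at -0.22 with an interval of -0.50 to 0.07.

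Among the other BCL2 relatives, 3 of 5 were tested. BCL2L15 was up, from 2.06 ± 0.337 to 4.49 ± 0.331 CPM (SD, n = 3), with a log2 fold change of 1.11 (edgeR, adjusted p = 2.91e-07), while BCL2L12 and BCL2L13 were lower, by -0.23 and -0.35. BCL2L10 stayed at or below 0.270 CPM, and BCL2L14 had no counts. Of 9 genes of the outer membrane and the intermembrane space, 5 were lower and 1 higher at the adjusted p, beside 32.0% and 31.9% of all tested genes, and none passed the fold threshold. CYCS, the gene of cytochrome c, had a log2 fold change of -0.42, and MTCH2, an outer membrane receptor for BID, of -0.39. VDAC2, a channel that binds BAK1 and BAX, was at 0.07 (adjusted p = 0.269, edgeR). HTRA2 was the gene that was higher, at 0.37.

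APAF1, the scaffold on which cytochrome c assembles the apoptosome, went down from 25.4 ± 0.848 to 9.42 ± 0.345 CPM (SD, n = 3), with a log2 fold change of -1.43 (edgeR, adjusted p = 8.60e-17), and CASP9, the caspase it activates, was higher by 0.56. For the turnover of MCL1, 6 of 7 genes were tested. The ligase gene BTRC and the deubiquitinase gene USP9X were higher, at 0.21 and 0.26, the deubiquitinase gene USP13 was lower, at -0.20, and the ligase genes HUWE1, FBXW7 and MARCHF5 did not pass the test. The changes of these MCL1 turnover genes were smaller than those of BAX, BCL2 and BCL2L1.

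**Figure D3:**
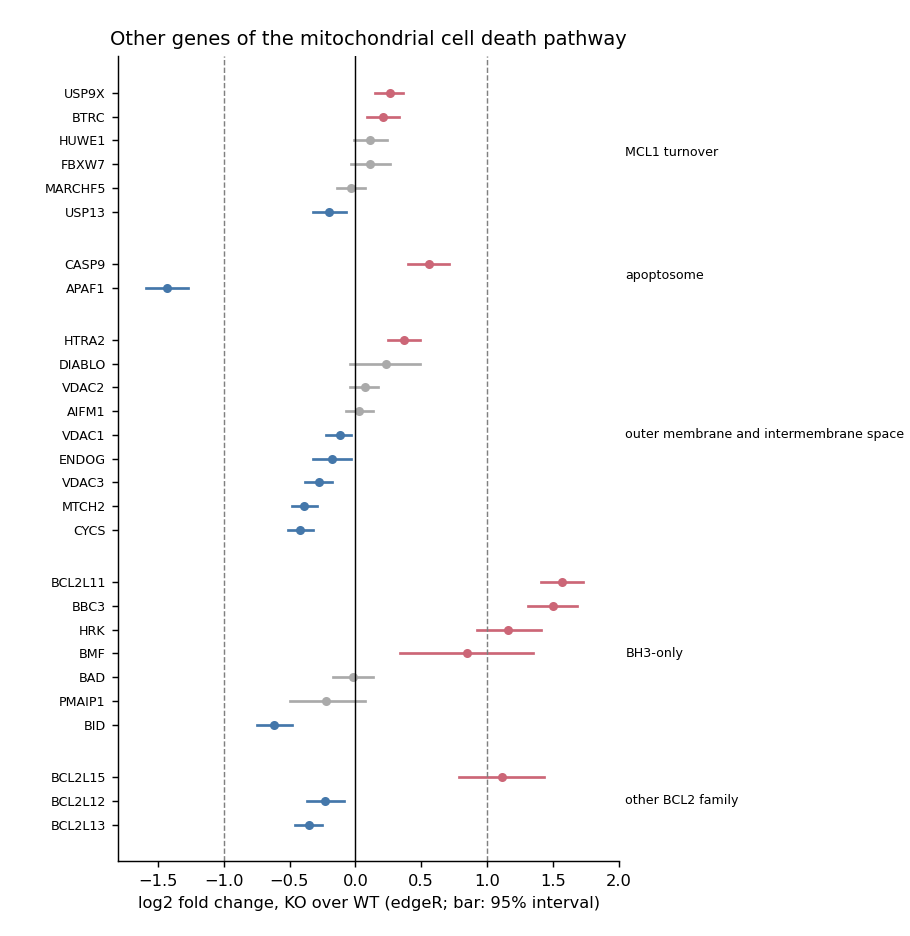
Log2 fold change of KO over WT (horizontal axis) for the 27 tested genes of the 5 lists, grouped by list, with edgeR's estimate as a point and its 95% interval as a bar, red for higher, blue for lower and grey for an adjusted p of 0.05 or more. BCL2L11, BBC3, HRK and BCL2L15 lie beyond the dashed line at 1 and APAF1 beyond that at -1.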

How the data were processed

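RNA-Seq of A2780 WT and A2780 CDK12 KO cells was available in 3 libraries per group, assigned by the genotype in the labels. The kit keeps strand information, and reads were single-ended. The authors deposited raw counts per Ensembl gene. They had mapped reads to GRCh38 with STAR and counted them with HTSeq-Count after FastQC. Versions, annotation release, strand setting and the handling of reads on overlapping genes are not given in the sources used here. Of 60483 listed genes, 93.1% matched GENCODE 44, which supplied symbols, positions and exon lengths.

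Genes were kept with filterByExpr (minimum count 10, minimum total 15), scaled with TMM and tested in edgeR 4.0.16 (R 4.3.3) with the quasi-likelihood test, a design without covariates and Benjamini-Hochberg adjustment over 16198 genes. Standard errors were the log2 fold change divided by the square root of F. CPM used TMM-scaled totals, and RPKM divided CPM by the union of exons. Within a group the biological coefficient of variation was 4.35%. Library totals set a floor of 3 counts, equal to 0.1 to 0.270 CPM, which covers counting error only. The test was checked on simulated counts in which 200 of 16198 genes were changed. It recovered 47 of 67 log2 changes of size 0.5, 59 of 66 of size 1 and 64 of 65 of size 1.5, with 8 false calls. In the data 63.9% of the tested genes passed the adjusted p, so the check does not cover a comparison with so many changes.

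The members and lists were chosen with earlier results of these data known. Named are all 8 members, rows that overlap or resemble them, list genes past both thresholds, the 3 genes most like the member with the largest change, and nearest neighbours. Neighbours of members short of the fold threshold and list genes past the adjusted p alone were named after their values were seen. Alternatives were voom/limma (limma 3.58.1), DESeq2 1.42.0, other scalings, filters and thresholds, thinning, omission of each library, and, for levels, another gene length. Protein sequences were not used here. Some list genes are not reported here and were left out of the list counts.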

Additional observations from a re-analysis of the deposited data

How the results depend on the processing

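No paired analysis was possible because the labels number the libraries from 1 to 6 and pair no WT library with a KO library. BAX, BCL2 and BCL2L1 kept their direction and their side of the adjusted p of 0.05 under all 13 alternatives tried for each, with log2 fold changes from -1.01 to -0.94, from 0.65 to 0.84 and from -0.54 to -0.49. BAK1 lost its call in 9 of 14 alternatives: its log2 fold change was 0.17 with voom/limma, 0.19 with DESeq2, 0.18 without a filter beyond 1 count in total and 0.18 with libraries thinned to the smallest total, 0.17 with BAK1P1 added, and from 0.13 to 0.27 with each library left out, with adjusted p over the alternatives that left out a library from 0.00685 to 0.188. The number of members higher in KO was then 1 in place of 2 with voom/limma, DESeq2, the 1-count filter and thinning, and from 1 to 2 with each library left out. The sign of BCL2L2 turned with upper-quartile normalization, at 0.000, and that of BOK without KO replicate 1, with a range from -0.056 to 0.019 over the libraries left out. Members down past both thresholds numbered from 0 to 1 over the libraries left out, since BAX passed the fold threshold without KO replicate 2. When the fold threshold itself was tested, 2 pathway genes in place of 4 were up, and 756 of all tested genes in place of 1345. With at least 10 counts in every library, 568 genes were up and 684 down past both thresholds in place of 1345 and 1252. At the adjusted p alone, 4439 were then higher in place of 5165. With the length of the longest transcript, BAK1 in KO no longer stood above BCL2L1 in level, the log2 difference of effectors over survival genes was -0.63, that of the BCL2 share 0.818 percentage points and that of the BAX share -16.1 points. After thinning, the log2 difference of BAX/BCL2L1 was -0.41. The cause was not tested for the other shifts. Upper-quartile scaling moved the median of all genes by 0.028. Depth limits the statement on BCL2A1 to its floor.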
